A study of Mus musculus with 62 samples.

Results

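The PFC libraries of this study differed among themselves in the level of activity-regulated genes, and 17 of its 62 RNA-seq libraries are described here, ordered by a score of 3 such genes. The libraries at each end were chosen by the measured levels of Fos, Arc and Egr1. The score of a library was the mean over Fos, Arc and Egr1 of the z-score of log2(CPM + 1), where CPM is the depth-scaled count after TMM scaling over the 17 PFC libraries. The 6 libraries with the highest score were set against the 6 with the lowest across all genes, and the score was then used as a continuous measure over all 17. The score genes chose the order, so their values are a description and are not counted among the results.

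Each library came from the PFC of 1 mouse, punched from frozen brain collected at ZT6, which falls in the light phase. The mice were male and female C57BL/6J animals of an experiment on circadian rhythm disruption (CRD), in which the light cycle was reversed repeatedly while control mice were handled alike on a fixed cycle, and brains were taken about 4 weeks later. The methods of the study name adolescent CRD and its controls as the source of the brains, while the protocol in the labels also names adult CRD. For each library only region and mouse number are labelled, so light history and sex are not given. The remaining libraries are 26 from the NAc and 19 from the SCN of the same experiment. No control or CRD group was compared, and what separated the libraries at the ends of the order was not assigned by design.

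Activity-regulated genes are transcribed within minutes of strong synaptic input, without new protein synthesis, after calcium entry has activated the kinases that act on the transcription factors CREB and SRF. Many of them encode transcription factors, such as FOS, EGR1 and NPAS4, and others encode effector proteins that act at synapses, such as ARC, HOMER1 and BDNF. In the prefrontal cortex they are widely used as a record of recent neuronal activity, since their RNA is short-lived. In tissue punches, fewer cells with a transcript and less of it per cell cannot be told apart.

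The promoters of Fos and of the 3 other inducible genes called below are shown because CREB and SRF sites near the start are the textbook route to their induction. The sequences are the 250 bases before a RefSeq start on GRCm38.p6, written 5′ to 3′ on the gene's strand: chr12:85473640-85473889 on the plus strand for Fos, chr10:67537619-67537868 on the plus strand for Egr2, chr8:84978749-84978998 on the minus strand for Junb, and chr1:134079156-134079405 on the minus strand for Btg2. Egr2 has 5 starts in the RefSeq table, and the one at the principal transcript of GENCODE M21 was taken. Capitals mark the cyclic AMP response element TGACGTCA (CRE), its core TGACG on either strand, and the CArG box to which SRF binds.
Fos: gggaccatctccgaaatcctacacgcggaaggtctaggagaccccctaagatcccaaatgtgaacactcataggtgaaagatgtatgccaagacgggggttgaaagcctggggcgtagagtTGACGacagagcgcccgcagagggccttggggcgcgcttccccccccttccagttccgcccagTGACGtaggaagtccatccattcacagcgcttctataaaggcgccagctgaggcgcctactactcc
Egr2: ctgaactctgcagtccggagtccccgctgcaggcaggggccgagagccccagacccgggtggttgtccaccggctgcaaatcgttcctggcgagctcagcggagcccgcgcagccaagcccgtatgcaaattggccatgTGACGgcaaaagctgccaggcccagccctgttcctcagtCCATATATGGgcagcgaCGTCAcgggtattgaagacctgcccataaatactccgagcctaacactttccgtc
Junb: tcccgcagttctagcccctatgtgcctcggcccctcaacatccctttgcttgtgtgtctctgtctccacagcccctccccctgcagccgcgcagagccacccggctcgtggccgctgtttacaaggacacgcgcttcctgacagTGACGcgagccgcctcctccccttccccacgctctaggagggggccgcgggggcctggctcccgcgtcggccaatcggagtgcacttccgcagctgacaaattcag
Btg2: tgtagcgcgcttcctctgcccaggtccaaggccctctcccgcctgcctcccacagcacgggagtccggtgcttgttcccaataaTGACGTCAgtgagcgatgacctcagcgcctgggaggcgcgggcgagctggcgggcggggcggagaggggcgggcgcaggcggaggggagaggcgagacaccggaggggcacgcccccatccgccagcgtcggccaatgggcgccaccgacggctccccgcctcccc
The window of Btg2 held a full CRE, which 1.55% of 32817 such windows of the genome also held. That of Egr2 held a CArG box (1.47% of windows) and 2 cores, while Fos held 2 cores and Junb 1 (17.7% of windows). The windows of Fos, Junb and Btg2 held no CArG box. Bases farther than 250 from the start were not searched, so a site there would be missed. Of the 19 inducible transcription factors in the count table, 16 had a RefSeq window, and 12 of the 16 held a core, 2 a CArG box, 1 a full CRE and 5 the EGR site, GCGTGGGCG or GCGGGGGCG, which 3.06% of windows held. A match of letters is a description and no evidence of binding. No window for Arc was used.

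The score ran from 1.53 in the library of mouse J1198 to -1.44 in that of J1141. The 6 highest libraries were J1198, J1165, J1019, J1021, J965 and J1015, and the 6 lowest were J1163, J1157, J1013, J1014, J1160 and J1141. The last library inside the upper end, J1015, scored 0.48 and the next one, J1164, 0.13, while at the lower end J1163 scored -0.47 and its neighbour J1177 -0.41. The lower end was therefore not set off from the libraries between the ends.

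Fos, which encodes a subunit of the AP-1 transcription factor, was at 6.19 CPM in the lowest, a median of 9.67 and 27.2 CPM in the highest of the 6 upper libraries, and at 2.14, 3.78 and 3.88 CPM in the 6 lower ones. Arc, whose protein drives removal of AMPA receptors from synapses, was at 32.8, 44.1 and 58.2 CPM against 16.1, 24.8 and 27.3 CPM. Egr1, a zinc finger transcription factor, was at 60.9, 79.2 and 89.5 CPM against 29.1, 45.5 and 56.8 CPM. These genes did not overlap between the ends, as the order required. They differed in shape, in that Fos spanned a 12.7-fold range over the 17 libraries, Arc 3.63-fold and Egr1 3.07-fold. The highest Fos was in J1198, the highest Arc in J1021 and the highest Egr1 in J965. Across the 17 libraries, log2(CPM + 1) of Fos and Arc had a Pearson r of 0.83, Fos and Egr1 of 0.53, and Arc and Egr1 of 0.59, given as a description because they define the score.

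**Figure D1:**
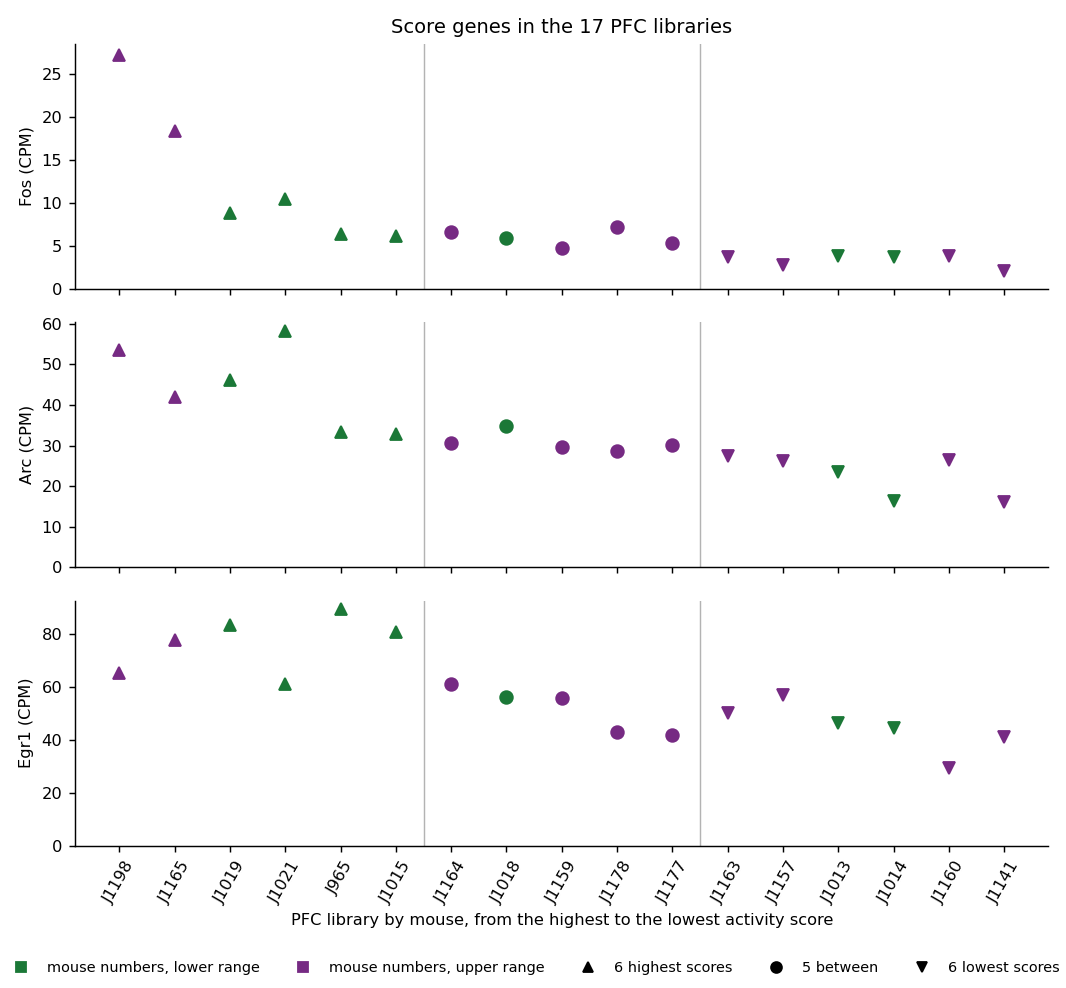
Fos, Arc and Egr1 (CPM, linear axes from 0) in each of the 17 PFC libraries, ordered from the highest to the lowest activity score, with colour for the range of mouse numbers and shape for the end of the order. Fos reached 27.2 CPM in J1198 and 18.4 CPM in J1165, and lay at 3.88 CPM or less in the 6 lowest libraries.

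Total counts were 42470537 to 50333579 in the 6 highest libraries and 31216225 to 46595845 in the 6 lowest, so even Fos rested on 63 to 1253 counts a library. Mice numbered J1021 or less form a lower range of mouse numbers and the others an upper range. The upper end of the score held 4 libraries of the lower range and 2 of the upper, and the lower end held 2 and 4. The mitochondrial ribosomal RNAs mt-Rnr1 and mt-Rnr2 took 43.4% to 54.0% of counts at the upper end (median 45.5%) and 45.0% to 59.1% at the lower end (median 51.0%). Xist had over 1000 counts in 2 of the 6 highest and in 3 of the 6 lowest libraries. The score went with the log2 total count at a Pearson r of 0.52 over 17 libraries (permutation test, two-sided p = 0.032, adjusted over 5 relations 0.10; Spearman rho 0.42, p = 0.098, adjusted 0.16), which was 0.43 in the lower range (n = 7, exact permutation p = 0.37) and 0.67 in the upper range (n = 10, permutation p = 0.035), and 0.34 when the 2 libraries most distant from the median score were left out (permutation p = 0.22). With mitochondrial and ribosomal RNA genes left out of the scaling and the totals, the r with the log2 total count was 0.66 (n = 17, permutation p = 0.0036, unadjusted). It went with the share of mt-Rnr1 and mt-Rnr2 at -0.45 (permutation p = 0.073, adjusted 0.11; rho -0.38, p = 0.13, adjusted 0.16), at -0.44 and -0.40 within the ranges (n = 7, exact permutation p = 0.35; n = 10, permutation p = 0.25) and at -0.67 without the 2 farthest libraries (permutation p = 0.0061). The share of the ribosomal RNA genes Gm42418, Gm26917 and Gm23935 gave -0.42 (permutation p = 0.090, adjusted 0.11; rho -0.43, p = 0.085, adjusted 0.16), with -0.61 and -0.42 within the ranges (n = 7, exact permutation p = 0.13; n = 10, permutation p = 0.24) and -0.38 without the 2 farthest (permutation p = 0.16). None of these relations passed the threshold after adjustment. The permutation p-values of 0.035, 0.0036 and 0.0061, each from a subset of libraries or another scaling, were not adjusted. Fits of the genes with depth or the ribosomal RNA share as a term are given below.

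Over the 17 libraries, edgeR called 6 of 11566 genes at an adjusted p under 0.05 for the slope of the log2 level on the score, which is 0.0519% of those tested. Higher with the score were Egr2, Junb and Btg2, all inducible transcription regulators, and lower with it were Hist1h4k, Rpph1 and Rps14. Slopes are given as log2 change per unit of score, and the ends lay about 2 units apart at their medians, 1.01 and -0.89. At an unadjusted p under 0.05 stood 2523 genes, 21.8% of those tested, with 1271 higher (11.0%) and 1252 lower (10.8%). DESeq2 called 347 genes on the same score, 171 higher and 176 lower, and all 6 of the edgeR calls were among them.

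Egr2, a zinc finger factor of the EGR family (chromosome 10, exonic length 3398 bases), was at 1.90 CPM in the lowest, a median of 3.86 and 6.58 CPM in the highest of the 6 upper libraries, and at 0.56, 0.90 and 2.11 CPM in the 6 lower ones. Of the upper libraries 5 lay above every lower library, and J1019 at 1.90 CPM lay under J1013 at 2.11 CPM. Its slope was 0.96 ± 0.13 (SE, n = 17; edgeR adjusted p = 0.0059), and the mean of the upper 6 was 3.79 times that of the lower 6. It kept its call in each of the 17 fits that left out 1 library, with slopes of 0.89 to 1.03.

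Junb, an AP-1 subunit of the JUN family (chromosome 8, 2301 bases), was at 11.7, 20.5 and 28.5 CPM in the upper 6 and at 10.1, 11.7 and 15.8 CPM in the lower 6. The 3 highest values, in J1198, J1021 and J1165, were 28.5, 25.3 and 24.9 CPM, while J965 and J1015 at 12.4 and 11.7 CPM lay within the lower libraries. The slope was 0.42 ± 0.070 (SE, n = 17; edgeR adjusted p = 0.028) and the ratio of means 1.65, with the call kept in 13 of the 17 fits that left out 1 library. Btg2, an antiproliferative transcription cofactor induced by activity and by p53 (chromosome 1, 2743 bases), was at 4.30, 10.6 and 43.1 CPM against 3.76, 5.66 and 7.68 CPM. J1198 at 43.1 CPM and J1165 at 22.1 CPM stood far above the rest, and J965 and J1015 at 4.30 and 5.15 CPM lay within the range of the lower 6. Its slope was 0.81 ± 0.15 (SE, n = 17; edgeR adjusted p = 0.045), and without J1198 it was 0.53 ± 0.15 (adjusted p = 0.039). Its call held in 8 of the 17 fits that left out 1 library, with slopes of 0.53 to 0.89 and adjusted p up to 0.20. Without J1141 the adjusted p was 0.13 for Junb and 0.20 for Btg2, at slopes of 0.42 and 0.82.

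**Figure D2:**
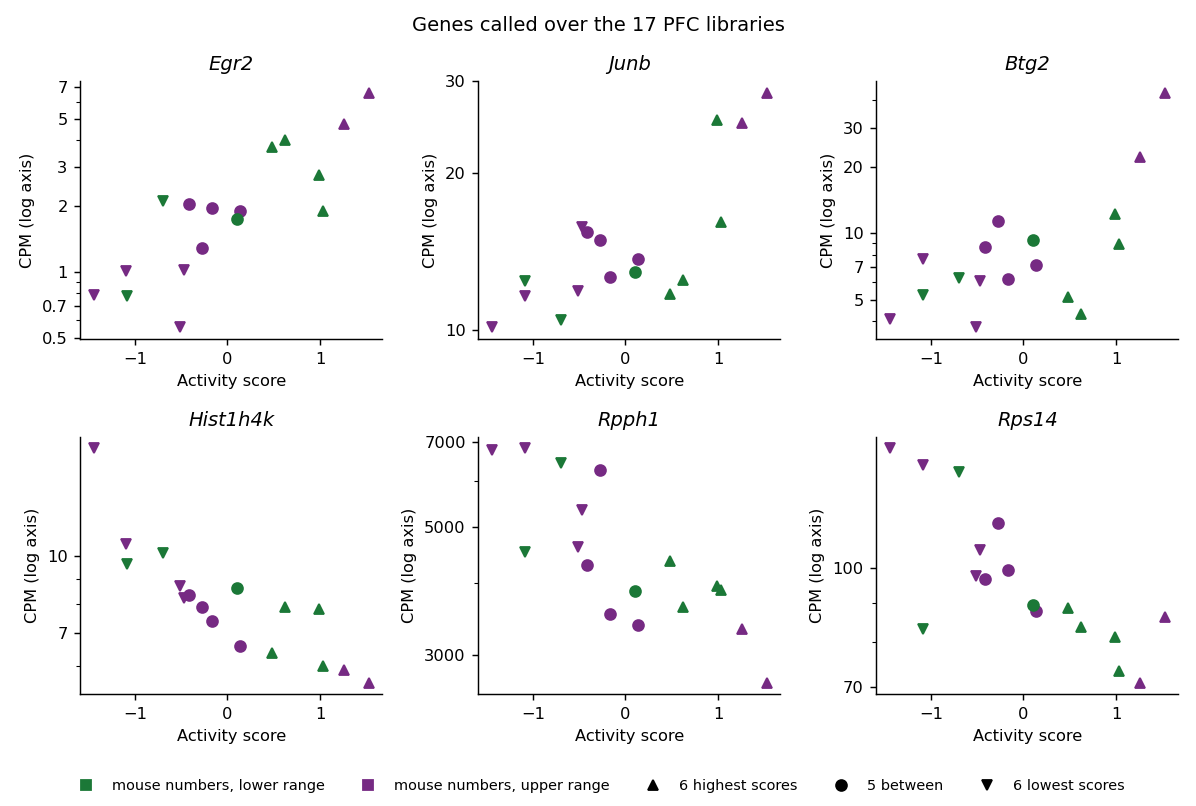
Level (CPM, log axes) of the 6 called genes against the activity score in the 17 PFC libraries, with colour for the range of mouse numbers and shape for the end of the order. Btg2 was at 43.1 CPM in J1198, and Hist1h4k and Rpph1 did not overlap between the ends.

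Of 24 listed inducible transcription factors 19 were measured, and 15 of them had a slope above 0. By edgeR 3 were called higher and none lower, against 0.0259% of all genes in each direction. At an unadjusted p under 0.05 stood 11, all higher, against 11.0% of all genes. Their median slope was 0.24, with -0.0032 over all genes tested. Npas4, a neuron-restricted factor that responds to calcium alone, had a slope of 0.67 ± 0.16 (SE; edgeR adjusted p = 0.091), with 3.69, 10.6 and 39.2 CPM in the upper 6 and 2.86, 8.29 and 12.7 CPM in the lower 6. Only J1198 and J1165, at 39.2 and 28.7 CPM, lay above all lower libraries. Nr4a1, an orphan nuclear receptor, had 0.37 ± 0.087 (adjusted p = 0.091), Egr4 0.24 ± 0.061 (0.092), Nr4a3 0.21 ± 0.073 (0.13), Fosb 0.28 ± 0.11 (0.17) and Jun 0.14 ± 0.052 (0.14). DESeq2 called Egr4, Npas4 and Nr4a1 besides the 3 genes above, 6 of 19 in all, against 1.48% of all genes called higher by DESeq2. Egr3, another zinc finger factor of the EGR family, had 0.043 ± 0.058 (edgeR adjusted p = 0.69), with 39.1 to 52.8 CPM in the upper 6 and 37.2 to 53.3 CPM in the lower 6.

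None of the 23 measured effector genes of 26 listed was called by edgeR, with 6 higher and 1 lower at an unadjusted p under 0.05, against 11.0% and 10.8% of all genes, and a median slope of 0.043. DESeq2 called 2 of them, Arl4d and Ptgs2, both higher, against 1.48% of all genes. Arl4d, a small GTPase of the ARF family, had a slope of 0.65 ± 0.12 (SE; edgeR adjusted p = 0.053), with 1.48, 3.09 and 8.84 CPM in the upper 6 and 1.45, 1.78 and 2.35 CPM in the lower 6. Ccn1, a matricellular signalling protein listed under its older symbol Cyr61, had 0.68 ± 0.17 (adjusted p = 0.092), and Ptgs2, the inducible cyclooxygenase, 0.34 ± 0.087 (0.093). Among the synaptic effector genes, Homer1, a postsynaptic scaffold gene, had -0.087 ± 0.054 (adjusted p = 0.34), Bdnf, a neurotrophin, -0.031 ± 0.063 (0.80), Nptx2, which clusters AMPA receptors, -0.065 ± 0.067 (0.59), and Nrn1, which encodes neuritin, -0.099 ± 0.043 (0.20). Homer1 counts here pool the inducible short form with the constitutive long forms. Vgf, a neuropeptide precursor, had 0.11 ± 0.075 (0.37).

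Of 10 measured genes that damp MAPK signalling, of 12 listed, none was called by edgeR and 3 were higher and 1 lower at an unadjusted p under 0.05, against 11.0% and 10.8% of all genes, with a median slope of 0.069. Dusp1, a phosphatase of MAP kinases, had 0.45 ± 0.11 (SE; edgeR adjusted p = 0.091) with 5.22, 12.7 and 21.5 CPM in the upper 6 and 5.34, 7.24 and 9.61 CPM in the lower 6. Dusp6, which acts on ERK, had 0.15 ± 0.038 (0.092), and both were called by DESeq2. Spred1 was the lower one, at -0.082 ± 0.032 (0.16).

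**Figure D3:**
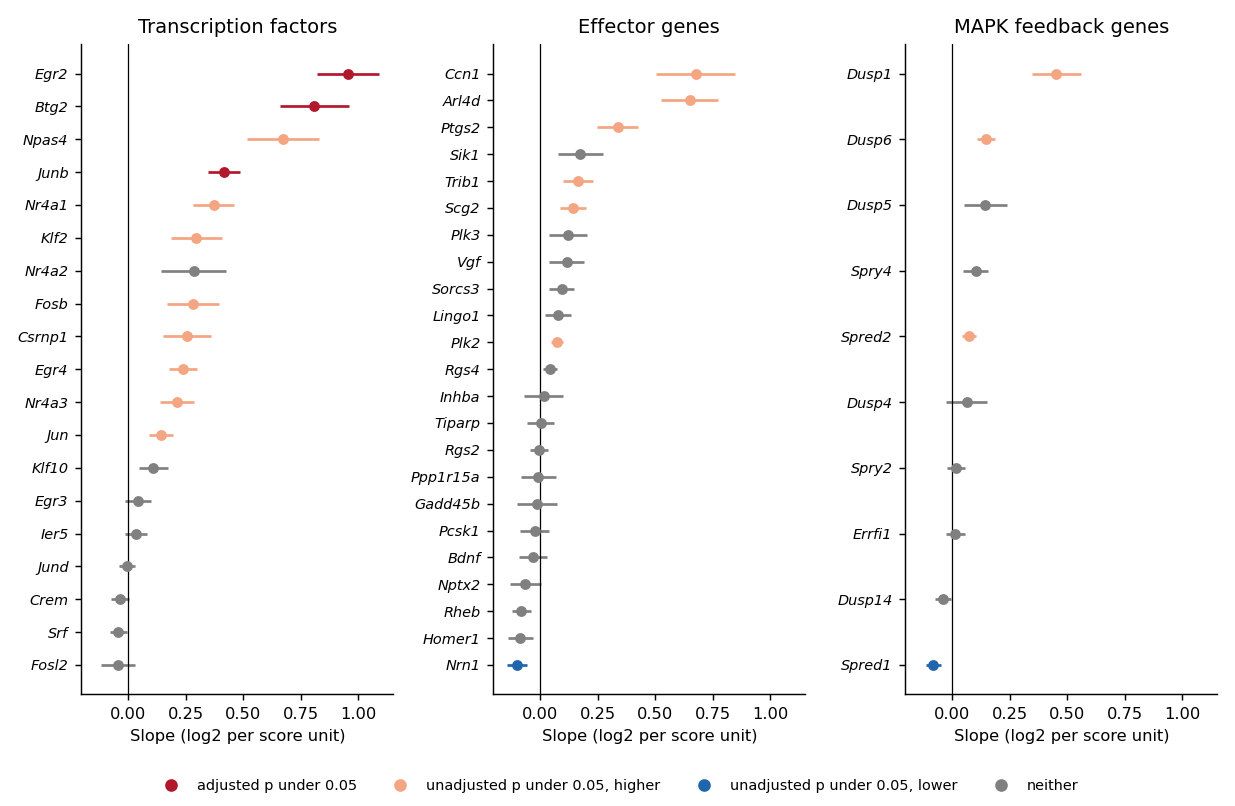
Slope of the log2 level on the activity score (point) with its standard error (bar) in the 17 PFC libraries, for the measured genes of 3 lists, with colour for the test. Egr2 at 0.96 and Btg2 at 0.81 were highest among the transcription factors, while Homer1 at -0.087 and Nrn1 at -0.099 were lowest among the effectors.

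The order of the upper libraries was not the same in every gene. J1198 was the highest of all 17 libraries for 5 of the 19 transcription factors, 5 of the 23 effectors and 4 of the 10 MAPK genes. J965, the highest in Egr1 at 89.5 CPM, was the lowest of the upper 6 in Npas4 at 3.69 CPM and in Btg2 at 4.30 CPM. Within the upper range of mouse numbers (n = 10) Npas4 had a slope of 1.0 ± 0.11 (SE; edgeR adjusted p = 0.0030), but within the lower range (n = 7) -0.056 ± 0.21 (0.98). Egr2 had 1.08 ± 0.13 and 0.65 ± 0.26, Junb 0.48 ± 0.057 and 0.35 ± 0.13, and Btg2 1.03 ± 0.14 and 0.33 ± 0.19 in the same 2 fits. In the upper range 8 genes were called, among them these 4, Arl4d and Dusp1. In the lower range of 7 libraries no gene was called by edgeR, with 411 genes at an unadjusted p under 0.05. The difference between the ranges was not tested.

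Among genes of other pathways, none was called by edgeR. Of 19 clock genes 3 were higher and none lower at an unadjusted p under 0.05, against 11.0% and 10.8% of all genes, with a median slope of 0.046. Per1, a clock repressor whose promoter is also CREB-responsive, had 0.15 ± 0.053 (SE; edgeR adjusted p = 0.14), with 22.8, 26.5 and 33.7 CPM in the upper 6 and 18.4, 21.6 and 24.4 CPM in the lower 6, and Nr1d1, the REV-ERB alpha gene, 0.12 ± 0.058 (0.23). Of 11 measured glucocorticoid-responsive genes of 14 listed, none was higher and 1, Pdk4, was lower at an unadjusted p under 0.05, at -0.13 ± 0.054 (adjusted p = 0.17), with a median slope of -0.034. Of 9 measured heat shock and cold-inducible genes of 12 listed, Hsph1 and Hsp90aa1, both chaperones, were higher at 0.15 ± 0.045 (0.11) and 0.13 ± 0.051 (0.16), and Rbm3, a cold-inducible RNA-binding protein gene, was lower at -0.22 ± 0.090 (0.18). DESeq2 called Hsph1 alone among the genes of these 3 lists.

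Both genes that were called and did not overlap between the ends were lower at high score. Hist1h4k, a histone H4 gene of 312 bases on chromosome 13, was at 5.56, 6.2 and 7.89 CPM in the upper 6 and at 8.22, 9.89 and 16.4 CPM in the lower 6, with a slope of -0.38 ± 0.056 (SE, n = 17; edgeR adjusted p = 0.0065). Each of the upper 6 lay under each of the lower 6, and Spearman's rho with the score was -0.93, the lowest of all genes with a mean of at least 5 CPM. Rpph1, the RNA of ribonuclease P, of 319 bases on chromosome 14, was at 2689, 3760 and 4359 CPM against 4533, 5894 and 6836 CPM, with a slope of -0.37 ± 0.064 (adjusted p = 0.031). Each upper library again lay under each lower one. Rps14, a protein of the small ribosomal subunit, was at 70.8, 82.4 and 88.6 CPM against 83.3, 119 and 143 CPM, with a slope of -0.27 ± 0.050 (adjusted p = 0.039), and J1014 at 83.3 CPM overlapped the upper libraries. Of the 17 fits that left out 1 library, 16 kept the call of Hist1h4k, 11 that of Rpph1 and 6 that of Rps14, with adjusted p of up to 0.064, 0.20 and 0.27. Histone H4 genes and ribosomal protein genes have near-identical copies in the genome, so how reads were shared among copies is uncertain. With the mt-Rnr1 and mt-Rnr2 share as a term, Hist1h4k kept its call at -0.35 ± 0.064 (adjusted p = 0.032), while Rpph1 had -0.30 ± 0.068 (0.16) and Rps14 -0.19 ± 0.040 (0.12). In that fit Egr2, Junb and Btg2 had slopes of 1.02, 0.47 and 0.96 and were called together with Arl4d, Dusp1 and Ccn1. The same fit had 957 genes at an unadjusted p under 0.05 (edgeR), against 2523 without the term. With the log2 total count as a term no gene was called by edgeR, 1900 genes had an unadjusted p under 0.05, and Egr2 had 1.05 ± 0.17 (adjusted p = 0.060).

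Without overlap between the 6 highest and 6 lowest libraries were 88 genes of 11566, of which 27 were above (0.233%) and 61 below (0.527%) in the upper libraries. No gene of the activity, clock, glucocorticoid or heat shock lists was among them. The 27 included Smc4, a condensin subunit, at 3.48, 4.40 and 4.93 CPM against 1.45, 2.54 and 3.39 CPM, and Arid4b, a chromatin-associated factor, at 44.2, 46.8 and 54.2 CPM against 32.1, 37.9 and 42.7 CPM. The adjusted p of the slope was 0.082 for Smc4 and 0.053 for Arid4b. The 10 genes with the highest Spearman rho were Dnajb14, Arid4b, Slitrk1, Ppig, Taok1, Cebpz, Rufy1, Zyg11b, Pak1 and Vps53, at 0.80 to 0.88, and their means differed little, with the upper 6 at 1.10 to 1.28 times the lower 6. Slitrk1, a synaptic adhesion gene, was at 66.1, 70.8 and 75.7 CPM against 57.0, 62.6 and 66.1 CPM. The 10 with the lowest rho were Hist1h4k, Ssbp4, Prdx4, Pdpr, Rpph1, Ndufab1, Pex19, Gpx1, Eif1 and Irak1bp1, at -0.93 to -0.82. Ndufab1, a subunit of respiratory complex I, was at 26.6, 29.5 and 32.5 CPM against 33.3, 36.8 and 40.5 CPM. With 5 libraries at each end 176 genes did not overlap, and with 8 at each end 20.

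Genes were split into 4 bins of near-equal size by exonic length. In the bin of shortest genes (median 1978 bases, n = 2886) the median slope was -0.042, with 3.81% of genes higher and 18.6% lower at an unadjusted p under 0.05. In the bin of longest genes (median 9747 bases, n = 2886) it was 0.038, with 21.1% higher and 5.41% lower. The bins between had median slopes of -0.013 and 0.0085. In the NAc, on a score made alike over the 26 NAc libraries, the shortest and longest bins had medians of -0.034 and 0.025. On the PFC score of the same mouse the NAc genes had 0.015 and -0.014. The 27 genes above at the upper end had a median exonic length of 7404 bases and the 61 below 2527 bases, against 4779 bases over all genes. With the mt-Rnr1 and mt-Rnr2 share as a term the medians of the shortest and longest bins were -0.014 and 0.019. With a score of Fos and Arc alone they were -0.022 and 0.023. Families of ribosomal protein, respiratory chain and histone genes, picked after their values were seen, lay on the low side. Of 84 ribosomal protein genes 53 were lower and 1 higher at an unadjusted p under 0.05 (median slope -0.13), as were 31 and 0 of 86 respiratory chain genes (-0.071) and 18 and 0 of 35 histone genes (-0.18). Over all genes 10.8% were lower and 11.0% higher at that threshold. On the NAc score edgeR called 46 of these ribosomal protein genes, 9 respiratory chain genes and 16 histone genes lower, against 1314 of all 11566 genes. The 9 of 86 respiratory chain genes were near the share over all genes, and edgeR called 2 of this family higher. Egr2, Junb and Btg2, at 3398, 2301 and 2743 bases, were shorter than the median gene and were higher with the score. The part of gene length in any of these slopes was not tested.

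**Figure D4:**
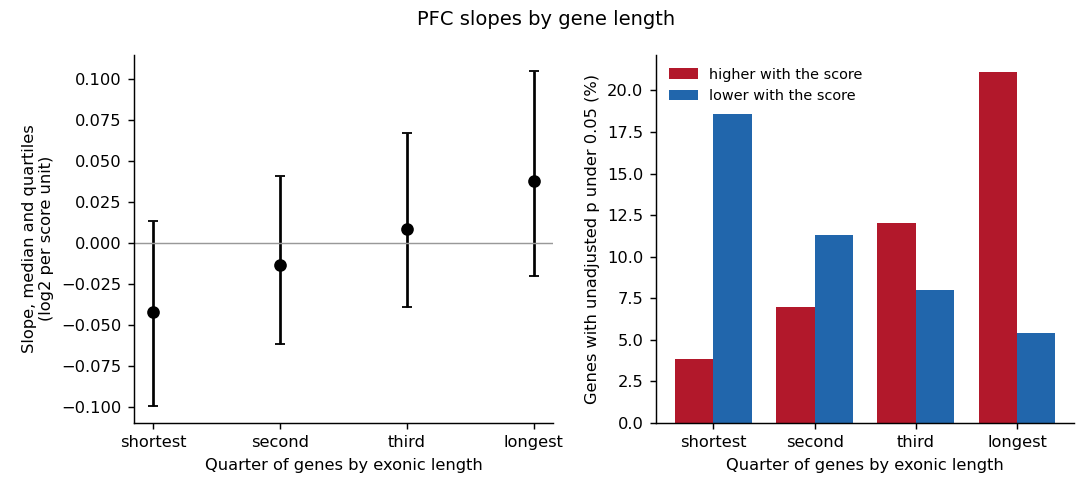
Slope on the activity score by bin of genes in exonic length (left, median and quartiles, log2 per score unit) and the share of genes with an unadjusted p under 0.05 in each direction (right, %). The median slope went from -0.042 in the shortest to 0.038 in the longest bin.

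Cell type markers were looked at as a whole, and none of the measured markers was called by edgeR. The counts below stand beside shares of 11.0% higher and 10.8% lower over all genes at an unadjusted p under 0.05. As a check of the PFC label, 5 markers of cortical glutamatergic neurons, among them Slc17a7 and Neurod6, were summed. They gave 2126 to 2540.5 CPM in the upper 6 (median 2171) and 1746 to 2422 CPM in the lower 6 (median 1902). The sum of 9 striatal markers was 77.3 to 121 CPM (median 103) and 72.8 to 153 CPM (median 108). At an unadjusted p under 0.05 stood 1 of 6 upper-layer markers, 2 of 5 of layer 5 and 1 of 5 measured ones of layer 6, all higher, with median slopes of 0.10, 0.15 and 0.17. Oligodendrocyte markers (1 of 9 higher) summed to 239 to 378 CPM against 141 to 343 CPM, and those of astrocytes and microglia had 0 of 6 and 0 of 8 in either direction. Of 10 interneuron markers 2 were higher and 1 lower, and of 9 endothelial and mural markers also 2 and 1. Oligodendrocyte precursors had 1 of 5 higher, and markers of granule cells of the olfactory bulb, a neighbour of the frontal cortex, 1 higher and 1 lower of 3 measured. Meningeal markers ranged from 90.2 to 322 CPM and from 77.2 to 413 CPM, and haemoglobin and Alas2 from 45.7 to 354 CPM and from 41.9 to 256 CPM, with none of 5 in either list at an unadjusted p under 0.05. None of 5 listed choroid plexus and ependymal markers was measured. Slopes were above 0 in 6 of 6 upper-layer, 5 of 5 layer 5 and 5 of 5 layer 6 markers, against 5583 of all 11566 genes. The same held for 4 of 5 glutamatergic, 9 of 10 interneuron, 8 of 9 oligodendrocyte and 5 of 5 precursor markers. It held for 3 of 6 astrocyte, 4 of 8 microglial, 5 of 9 striatal, 5 of 9 endothelial and mural, and 0 of 5 meningeal markers. DESeq2 called 1 marker, Tbr1 of layer 6. The part of these differences in the results was not tested.

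The same mice gave NAc and SCN libraries, which the order did not use. The SCN library labelled J1165 had 1403 Xist counts where the PFC and NAc libraries of that number had 18 and 23, so whether it came from the same mouse is in doubt. It was the only such case among 24 mice with more than 1 library, and it had the highest SCN score of those compared, 1.25. The PFC score went with the NAc score, made in the same way over the 26 NAc libraries, at a Pearson r of 0.35 (n = 17, permutation p = 0.17, adjusted 0.17; rho 0.25, p = 0.33, adjusted 0.33), at 0.51 and 0.38 within the lower and upper ranges of mouse numbers (n = 7, exact permutation p = 0.25; n = 10, permutation p = 0.27) and at 0.32 with the 2 most distant libraries left out (permutation p = 0.24). Fos in the NAc was at 0.41 to 3.61 CPM (median 2.67) in mice of the upper end and at 1.04 to 3.41 CPM (1.64) in those of the lower end, and Arc at 13.4 to 42.0 CPM (22.0) and 12.6 to 22.5 CPM (14.7). The groups overlapped in both. With the SCN score r was 0.59 in the 12 mice with both (permutation p = 0.040, adjusted 0.10; rho 0.65, p = 0.026, adjusted 0.13), 0.62 in the upper range (n = 8, exact permutation p = 0.10) and 0.56 without the 2 farthest (permutation p = 0.093), and the lower range held 4 such mice, too few for a value. Without J1165 r was 0.46 (n = 11, permutation p = 0.16; rho 0.59, p = 0.061), and 0.37 in the upper range (n = 7, exact permutation p = 0.45). SCN Fos was at 5.92, 8.92 and 11.0 CPM in 4 mice of the upper end and at 4.50, 6.15 and 8.18 CPM in 4 of the lower end, and at 5.92, 10.2 and 11.0 CPM in the upper end without J1165. Neither relation passed the adjusted threshold over the 5.

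**Figure D5:**
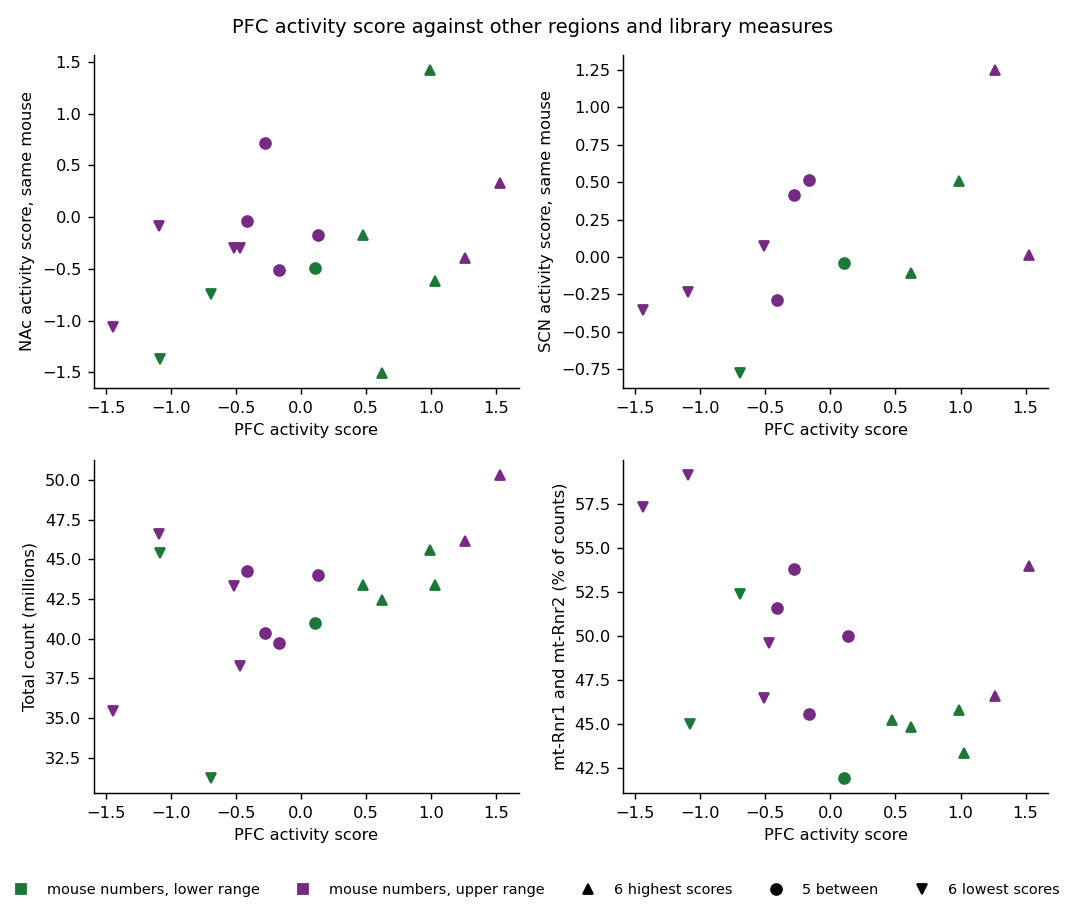
The PFC activity score (horizontal axes) against the NAc score and SCN score of the same mouse, the total count and the share of counts on mt-Rnr1 and mt-Rnr2 (%), with colour for the range of mouse numbers and shape for the end of the order. Pearson's r was 0.35 with the NAc (n = 17), 0.59 with the SCN (n = 12, and 0.46 without J1165, whose SCN library is in doubt), 0.52 with the log2 total count and -0.45 with the ribosomal RNA share.

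No NAc gene was called by edgeR for a slope on the PFC score of the same mouse (0% of 11569, n = 17), with 1644 genes (14.2%) at an unadjusted p under 0.05 and 3 called by DESeq2. On the NAc's own score over 26 libraries, which shares no library with the PFC fit, 2468 of 11566 genes (21.3%) were called, 1154 higher and 1314 lower, and 19.9% were higher at an unadjusted p under 0.05. Among the 19 transcription factors 5 were called there, all higher, namely Junb at 0.25 ± 0.070 (SE; edgeR adjusted p = 0.023), Jun, Egr4, Nr4a1 and Nr4a3, against 9.98% of all genes called higher. Egr2, the leading gene in the PFC at 0.96, had 0.22 ± 0.17 (adjusted p = 0.34) in the NAc, and Btg2 0.19 ± 0.10 (0.17) against 0.81. The score was scaled within each region, so a unit of it is not the same change in Fos, Arc and Egr1 in both. This also holds for the difference in slope below. In a joint fit of the 43 libraries of both regions, in which 17 mice gave a library to each, no gene differed in slope at an adjusted p under 0.05 (smallest 0.43, with 1128 genes at an unadjusted p under 0.05), and the unadjusted p of the difference was 0.0068 for Egr2 and 0.0022 for Btg2. With the mouse as a block over the 34 libraries of these 17 mice, no gene was called either (smallest adjusted p 0.95, with 529 genes at an unadjusted p under 0.05), and the unadjusted p was 0.36 for Egr2 and 0.016 for Btg2. Of the 5 markers of cortical glutamatergic neurons 3 were called higher on the NAc score, with a median slope of 0.72. In the PFC none of them was called and their median slope was 0.063. The part of these markers in the NAc calls was not tested.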

How the data were processed

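Gene counts of 17 PFC libraries were analysed, with 26 NAc and 19 SCN libraries of the same experiment for comparison. The authors mapped paired-end reads with HISAT2 to GRCm38, used HTSeq (union mode) for gene counts, and deposited these counts unnormalized; the submitters' processing notes name FastQC 0.11.7 and HISAT2. Per the methods of the study, low-level genes were removed for each region separately, and genes of the Y chromosome were removed. The deposited PFC and NAc counts share the same 11569 genes, so their filter may not be the one described. Every row of the table of 11569 genes was used, Fos, Arc and Egr1 were left out of the calls, and 24 rows had no symbol in GENCODE M21 and kept their identifier. Totals per PFC library were 31216225 to 50333579 counts. No PFC library repeated another.

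The slope of the log2 level on the score was tested with edgeR 4.0.16 (quasi-likelihood, TMM, R 4.3.3) over the 17 libraries and adjusted by Benjamini-Hochberg over 11566 genes, with DESeq2 1.42.0 as an alternative. The 6 against 6 comparison is a description, because the libraries were picked by values measured in them, and a fit of these ends as groups is no valid test and supports nothing. Permutation tests were two-sided with 100000 resamples, or exact under n = 10, in Python 3.11.15 with scipy 1.17.1. The joint fit of the PFC and NAc, with and without the mouse as a block, and the relation without J1165 were added after the data were seen. P-values measure the spread between mice, except in the joint fit without the mouse as a block. That fit took the PFC and NAc libraries of a mouse as independent. In simulated PFC counts of 11569 genes, 56 of 67 genes with a slope of 0.25, 66 of 67 with 0.5 and 67 of 67 with 1 were recovered, and 7 unchanged genes were called. These shares do not carry over to the measured counts, where Npas4 and Arl4d had slopes above 0.5 and were not called by edgeR. A gene that was not called is therefore not shown to be unchanged. Named were the listed genes, the called genes that did not overlap between the ends (at most 10 in each direction by fold), and the 10 genes with the highest and the 10 with the lowest rho, at a mean of at least 5 CPM for the last 2. The other called genes, Smc4 and the ribosomal protein, respiratory chain and histone families were picked with their values in view. The members, lists and tests were chosen with earlier results of these data known. Older symbols (Cyr61, Ctgf) were matched through RefSeq synonyms. Exonic lengths and positions came from GENCODE M21 and promoters from RefSeq, GRCm38.p6.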

Additional observations from a re-analysis of the deposited data

How the results depend on the processing

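Over the PFC score 6 genes were called. The number was 347 with DESeq2, 0 in the lower range of mouse numbers, 0 with the 6 highest and 6 lowest as groups (a planned fit that is no valid test, since the same values chose the libraries), 0 without the 2 libraries farthest from the median score (3065), 930 with the score without Fos, 502 without Arc, 16 with the rank of the score and 0 with the log2 total count as a term, which was added after the data were seen. All 6 were among the calls of DESeq2, of the rank and of the scores without Fos or Arc. The score without Egr1 gave 9 calls and kept 4 of the 6, with Rpph1 and Rps14 lost. At an unadjusted p under 0.05 it had 895 genes, against 2523 with the full score, 3434 without Fos and 3171 without Arc. Leaving out 1 library gave 1 to 985 calls, with 1 without J1141, 985 without J1014, 894 without J1198, 2 without J1013, J1021 or J1165, 3 without J1163 and 10 without J965. The other alternatives gave 5 to 9. The cause was not tested.

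Libraries without overlap gave 88 genes at 6 an end, 176 at 5 and 20 at 8. Genes of the NAc on the PFC score went from 0 to 3 with DESeq2, and on the NAc score from 2468 to 1501 with the range of mouse numbers as a term. The relation to the SCN score (0.59) was 0.62 in the upper range, 0.56 without the 2 farthest libraries and 0.46 without J1165 (added later), no longer under 0.05. That to the log2 total count (0.52) had rho 0.42, 0.43 in the lower range and 0.34 without the 2 farthest, and that to the mt-Rnr1 and mt-Rnr2 share (-0.45) was -0.67 without the 2 farthest.

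Slopes that turned were not called. In the lower range of mouse numbers Npas4 had -0.056, Fosb -0.22, Egr3 -0.041, Ptgs2 -0.046 and Vgf -0.021. Egr3 had -0.019 with the mt-Rnr1 and mt-Rnr2 share as a term, also added later. Bdnf had 0.0052 in the upper range, 0.037 with the log2 total count, and -0.051 to 0.014 over the fits that left out 1 library. Within a region each mouse had 1 library, so pairing applied only to the PFC against NAc slopes. The joint fits with and without the mouse as a block, both added later, each gave 0 calls. Low counts limit Ccn1, Egr2 and Arl4d, at 2.17, 2.29 and 2.81 CPM on average.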
